A study of Homo sapiens with 6 samples.

Results

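The 40 genes described here encode the sensors, chaperones, folding enzymes, degradation machinery and translocon of the endoplasmic reticulum (ER). They were taken from the table of raw counts by symbol, as the rows whose name was on a fixed list, and all 40 of the list were found among 27470 genes, 1 of them, VIMP, under its newer symbol SELENOS. The RNA came from 22Rv1-ABHD5 cells, made by stably placing a doxycycline (Dox)-inducible ABHD5 transgene into 22Rv1, a castration-resistant line of human prostate cancer. The 3 libraries without Dox and the 3 with Dox came from cells of this same transgenic line, harvested at 48 h, so that every library carries the transgene and the groups differ in the drug. Parent 22Rv1 cells given Dox were not analysed here, so the effects of Dox and of ABHD5 cannot be told apart. Nothing in the labels says that the replicates came from separate cultures, so p-values measure only the spread between these libraries. ABHD5 itself, the coactivator of the triglyceride lipase ATGL, was counted at 63.5, 58.0 and 62.8 CPM (counts scaled to a common total of counts on genes, after TMM normalization) without Dox and 125.9, 130.8 and 91.7 CPM with Dox, a log2 fold change of 0.91 ± 0.15 (SE, adjusted p = 1.978e-04). Reads come from transcript ends, and the end of the transgene transcript is not given in the sources used here. How much transgene RNA this count holds is therefore not known.

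Proteins destined for membranes or secretion enter the ER through the SEC61 channel and fold there with the help of HSP70- and HSP90-type chaperones, lectin chaperones and disulfide isomerases. When unfolded protein accumulates, 3 membrane sensors, IRE1 (gene ERN1), ATF6 and PERK (gene EIF2AK3), start the unfolded protein response (UPR), in which the transcription factors XBP1, ATF6 and ATF4 raise the transcription of chaperones and of the ER-associated degradation (ERAD) machinery that returns misfolded proteins to the proteasome. In prostate epithelium, a secretory tissue, the IRE1 and XBP1 arm is known to be responsive to androgens.

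With Dox, 8 of the 39 members that could be tested rose, 3 fell and 28 did not pass an adjusted p of 0.05. The share that rose was 20.5% of the tested members against 11.9% of all 12233 genes tested, and the share that fell was 7.69% against 13.7%. In both directions together 28.2% of the members and 25.5% of all genes were past the threshold, so the number of members called was close to the background. ERO1B had the largest rise, 4.33-fold, followed by DNAJB9 with 2.30-fold, OS9 with 1.77-fold, HERPUD1 with 1.56-fold and SEL1L with 1.52-fold. EDEM3 had the largest fall, to 0.444 of its level without Dox, followed by CREB3L4 with 0.561 and PDIA6 with 0.705. Transcripts commonly read for the UPR were thus found on both sides of the threshold. DNAJB9 and HERPUD1 were among the rises, while the chaperones HSPA5, with a fold of 1.10, HSP90B1 with 0.801 and CALR with 0.898 did not pass. The median log2 fold change of the tested members was -0.081, beside 0.016 for all genes tested. Libraries with and without Dox did not overlap in 18 of the 39 members (46.2%), 11 of them higher and 7 lower with Dox, against 39.5% of all genes, 19.0% higher and 20.5% lower. In cultured cells as in any bulk RNA, fewer cells that express a gene and less RNA per cell cannot be told apart.

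**Figure D1:**
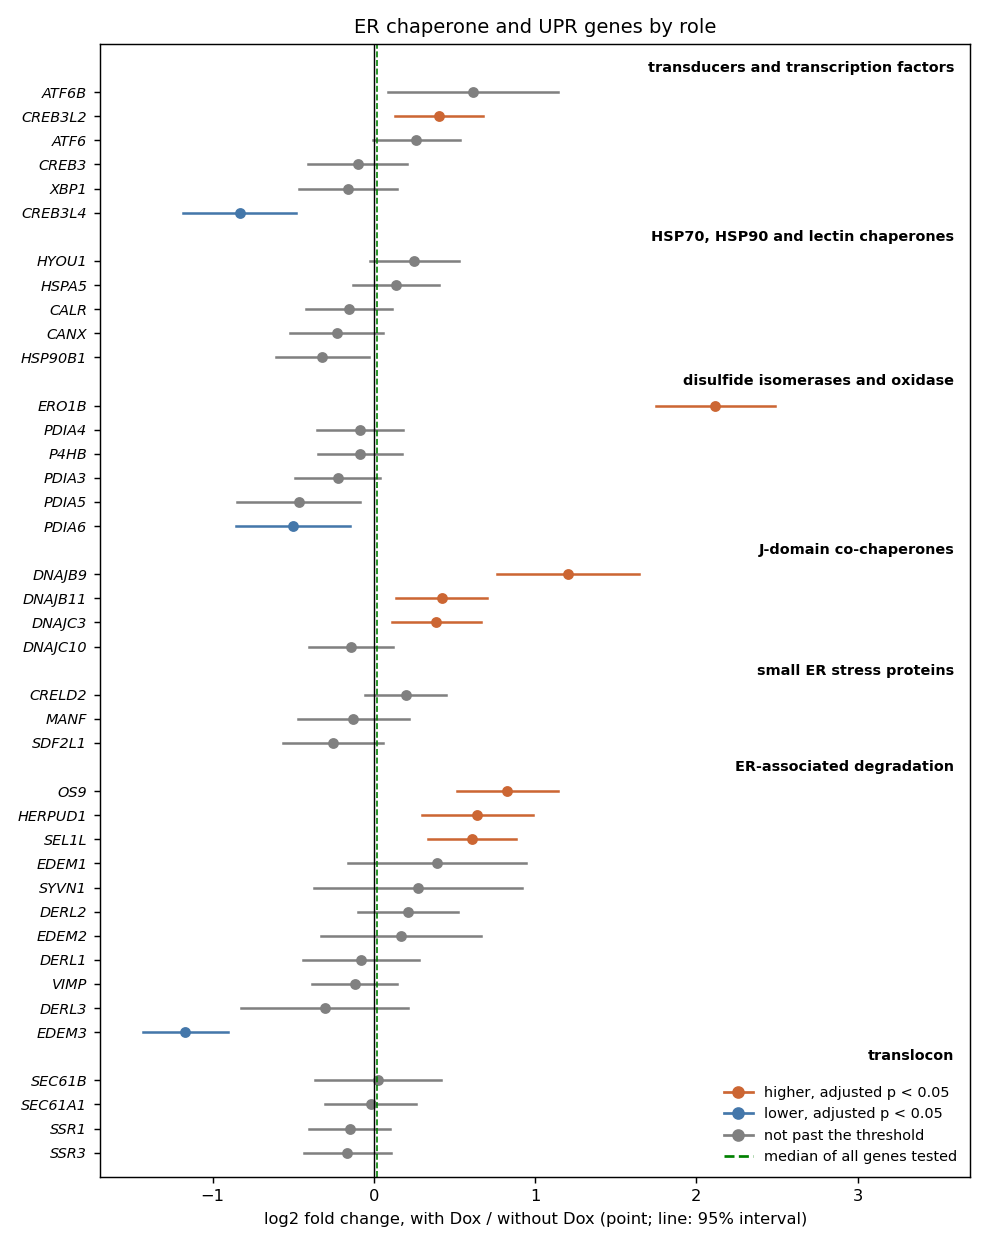
Log2 fold change with Dox over without Dox (horizontal axis) of the 39 tested members, grouped by role; points are the edgeR estimates, lines their 95% intervals, orange is higher and blue lower at an adjusted p under 0.05, and the dashed line is the median of all genes tested. The 8 rises sit among the co-chaperones, the ERAD genes, ERO1B and CREB3L2, while every interval of the 5 large chaperones lies between -0.61 and 0.52.

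Only ERN1, which encodes the sensor IRE1, was too low to be tested, with 10, 2 and 8 counts without Dox and 6, 8 and 3 counts with Dox. Each of the other 39 members had at least 27 counts in every library, so that none entered the test through 1 condition alone. The libraries held 3394672 to 7271771 counts on genes. Reads on no gene were 32.5% to 34.6% of those listed without Dox and 35.6% to 39.5% with Dox, and the part of this shift in the results below was not tested. All 12 markers of luminal prostate cancer cells were detected in every library, and 8 of them were lower with Dox, their summed level being 1976 to 2072 CPM without Dox and 1235 to 1389 CPM with Dox. Of 14 fibroblast, immune and endothelial markers, 5 were at 0 in every library, and the sum of all 14 was 9.66 to 13.3 CPM without Dox and 12.2 to 14.3 CPM with Dox. Of the 3 that could be tested 1 was called, the fibroblast collagen COL1A1, at 2.43 ± 1.09 CPM without Dox and 5.49 ± 2.01 CPM with Dox (SD, n = 3; log2 fold change 1.22, adjusted p = 0.0313), with overlap between the conditions. The part of these markers in the results was not tested.

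The promoters of this group carry the sequences through which the UPR was first traced. ATF6, together with the factor NF-Y, binds the ER stress element (ERSE, CCAAT and CCACG with any 9 bases between them) and the shorter ERSE-II (ATTGG and CCACG with any 1 base between them), and XBP1 binds the UPR element (UPRE, TGACGTGG). These letters were searched on both strands in the RefSeq promoter sequences (250 bases before to 50 after the start, GRCh38.p14), in which all 40 members had an entry and 7 had more than 1, a member counting once if any of its promoters held the letters. ERSE letters were present in 8 members and in 0.0769% of all 35116 promoters, ERSE-II letters in 3 members and 0.0541% of promoters, and UPRE letters in 3 members and 0.729% of promoters. Since the ERSE was defined on genes of this group, its frequency here is no independent observation. The 8 members with the ERSE are shown with 5 bases on either side, read along the gene's own strand, with the matched letters in capitals; a match that starts with CGTGG is the element on the other strand.
XBP1, chr22:28800598-28800626, minus strand: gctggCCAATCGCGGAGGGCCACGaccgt
HSPA5, chr9:125241386-125241414, minus strand: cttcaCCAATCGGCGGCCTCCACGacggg
HSP90B1, chr12:103930211-103930239, plus strand: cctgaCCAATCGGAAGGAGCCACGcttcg
HSP90B1, chr12:103930316-103930344, plus strand: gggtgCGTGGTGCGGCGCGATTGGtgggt
CALR, chr19:12938379-12938407, plus strand: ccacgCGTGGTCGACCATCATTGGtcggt
CANX, chr5:179698773-179698801, plus strand: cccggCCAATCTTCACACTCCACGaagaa
CRELD2, chr22:49918549-49918577, plus strand: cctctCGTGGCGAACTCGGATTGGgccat
PDIA6, chr2:10812848-10812876, minus strand: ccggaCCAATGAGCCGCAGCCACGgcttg
ERO1B, chr1:236282178-236282206, minus strand: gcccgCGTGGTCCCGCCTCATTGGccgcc
The ERSE-II matches were in HYOU1, SDF2L1 and HERPUD1, and those of the first and the last are shown because their genes differ in call, HYOU1 with 2 copies of which the upper overlaps a UPRE match.
HYOU1, chr11:119057375-119057395, minus strand: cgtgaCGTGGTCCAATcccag
HYOU1, chr11:119057269-119057289, minus strand: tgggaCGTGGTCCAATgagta
HERPUD1, chr16:56932020-56932040, plus strand: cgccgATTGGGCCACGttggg

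Genes that share these letters did not share a direction. Of the 8 members with an ERSE, ERO1B rose, PDIA6 fell, and XBP1, HSPA5, HSP90B1, CALR, CANX and CRELD2 did not pass the threshold. Counting the 3 elements together, 2 of the 8 members that rose, 1 of the 3 that fell and 10 of the 28 that did not pass held a match. Because ERO1B and HERPUD1 are the 2 members with a match that rose, their upstream sequences are printed up to the first base annotated as exon in GENCODE 44. In ERO1B the match lies 225 to 243 bases before the RefSeq start, farther out than that of any other ERSE shown.
ERO1B, chr1:236282020-236282208, minus strand: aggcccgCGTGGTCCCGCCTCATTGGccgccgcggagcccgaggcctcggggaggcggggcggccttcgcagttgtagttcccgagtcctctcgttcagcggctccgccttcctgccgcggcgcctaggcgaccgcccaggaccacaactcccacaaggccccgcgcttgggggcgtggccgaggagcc
HERPUD1, chr16:56931892-56932141, plus strand: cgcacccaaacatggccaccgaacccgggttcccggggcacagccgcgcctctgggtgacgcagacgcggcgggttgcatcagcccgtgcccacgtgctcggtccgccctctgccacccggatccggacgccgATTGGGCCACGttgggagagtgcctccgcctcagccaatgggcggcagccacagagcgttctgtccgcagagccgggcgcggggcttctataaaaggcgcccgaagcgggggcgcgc
A match of letters is not evidence of binding, and members without one may hold the element outside this window. Only exact letters were searched, so variants inside the window were not counted. The HERPUD1 sequence above, for example, holds CCAAT and CCACA with 9 bases between them, the ERSE but for its last letter.

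**Figure D2:**
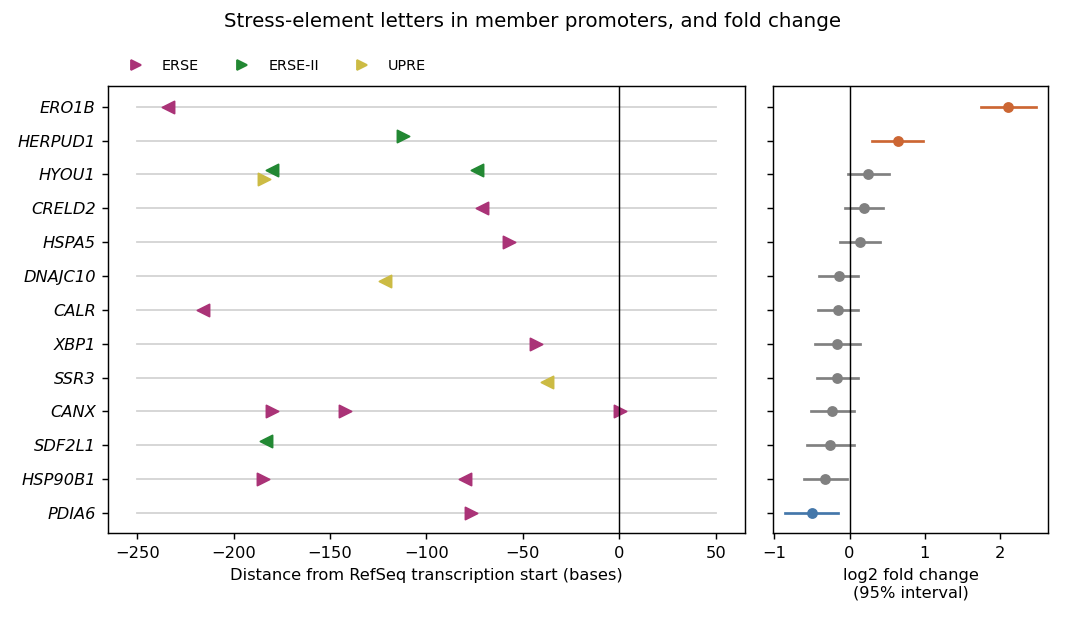
Left, positions of ERSE, ERSE-II and UPRE letters relative to the RefSeq transcription start (bases) in the 13 members with a match, arrowheads pointing along the matched strand and the CANX site being drawn from each of the 3 annotated starts within whose window it lies; right, the log2 fold change of the same genes with its 95% interval. The genes, chosen for having a match, are ordered by fold change from ERO1B at 2.12 to PDIA6 at -0.50.

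Among the sensors and transcription factors, 1 rose, 1 fell and 4 did not pass the threshold. XBP1, the factor made active when IRE1 splices its mRNA, was counted at 168.2, 124.7 and 168.3 CPM without Dox and 147.7, 116.3 and 148.6 CPM with Dox. The groups overlapped, and the log2 fold change was -0.16 (95% interval -0.46 to 0.14). Counts per gene do not separate spliced from unspliced XBP1 mRNA, so these values bear on its amount and not on its activation. ATF6 was at 75.0, 76.9 and 74.5 CPM without Dox and 99.6, 85.2 and 87.0 CPM with Dox, all 3 libraries with Dox being the higher, but at a log2 fold change of 0.26 it did not pass (adjusted p = 0.141). ATF6B, its paralog, had 29.0, 20.5 and 14.7 CPM without Dox and 23.5, 27.6 and 44.1 CPM with Dox. Its log2 fold change of 0.62 had an adjusted p of 0.0813, and it passed without replicate 1 without Dox (0.88, adjusted p = 0.0295) without replicate 1 or 2 with Dox (0.79 and 0.71, adjusted p = 0.0488 and 0.0495) and without a filter on low counts (0.60, adjusted p = 0.0117). Exons of ATF6B overlap those of TNXB, so its count may be incomplete.

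The CREB3 family, membrane-bound factors that like ATF6 are released by cleavage in the Golgi, moved in different directions. CREB3L4, known from prostate as an androgen-induced member, was at 156.5, 199.1 and 144.0 CPM without Dox and 88.9, 119.1 and 73.7 CPM with Dox. It fell in every library with Dox below every library without, by 0.83 on the log2 scale (SE 0.17, adjusted p = 0.00131), and exons of JTB and SLC39A1 overlap it on the opposite strand. CREB3L2, known for its part in raising the secretory capacity of cartilage cells, went from 63.7, 56.8 and 67.6 CPM to 82.2, 86.0 and 81.8 CPM. This rise of 0.40 on the log2 scale (adjusted p = 0.0289) passed the threshold narrowly and lost it without replicate 1 or 2 without Dox (0.40 and 0.33, adjusted p = 0.100 and 0.129) and without replicate 1 or 2 with Dox (0.41 and 0.38, adjusted p = 0.0783 and 0.0536). CREB3 had a log2 fold change of -0.10 and did not pass. CREB3L1, which was on a second list of ER genes and not among the members, fell from 38.6 ± 6.03 to 12.7 ± 3.29 CPM (SD, n = 3), by 1.56 on the log2 scale (adjusted p = 2.275e-05).

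None of the 5 large chaperones passed the threshold, and their intervals limit how far they can have moved. HSPA5 encodes BiP, the HSP70 of the ER that holds the sensors inactive. It was counted at 787.8, 857.2 and 829.5 CPM without Dox and 974.0, 953.1 and 794.9 CPM with Dox. Replicate 3 with Dox lay among the libraries without Dox, and the log2 fold change was 0.14 (95% interval -0.13 to 0.40). HYOU1, its nucleotide exchange factor, had the same arrangement, with 391.5, 400.7 and 359.9 CPM without Dox and 491.7, 493.1 and 385.5 CPM with Dox. Its log2 fold change of 0.25 (adjusted p = 0.177) was 0.36 without replicate 3 with Dox, which then passed (adjusted p = 0.0473).

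HSP90B1, which encodes the HSP90 of the ER (GRP94), pointed the other way. It was at 2031, 2086 and 2341 CPM without Dox and 1689, 1997 and 1489 CPM with Dox, so that the groups did not overlap. Its log2 fold change of -0.32 (95% interval -0.61 to -0.03) did not pass after adjustment (adjusted p = 0.0993) and did so without replicate 2 with Dox (-0.44, adjusted p = 0.0247). The lectin chaperones, which bind glycoproteins trimmed to their last glucose, had log2 fold changes of -0.15 for CALR and -0.23 for CANX. CALR was at 1312, 1364 and 1137 CPM without Dox and 1188, 1140 and 1097 CPM with Dox, while CANX, at 858.8, 1003 and 872.6 CPM, gave 843.3, 844.6 and 643.9 CPM with Dox. Only CANX of these had no overlap between the groups. The summed level of the 5 chaperones was 5382, 5710 and 5540 CPM without Dox and 5186, 5427 and 4411 CPM with Dox, and replicate 3 with Dox was the lowest of the 6 libraries.

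**Figure D3:**
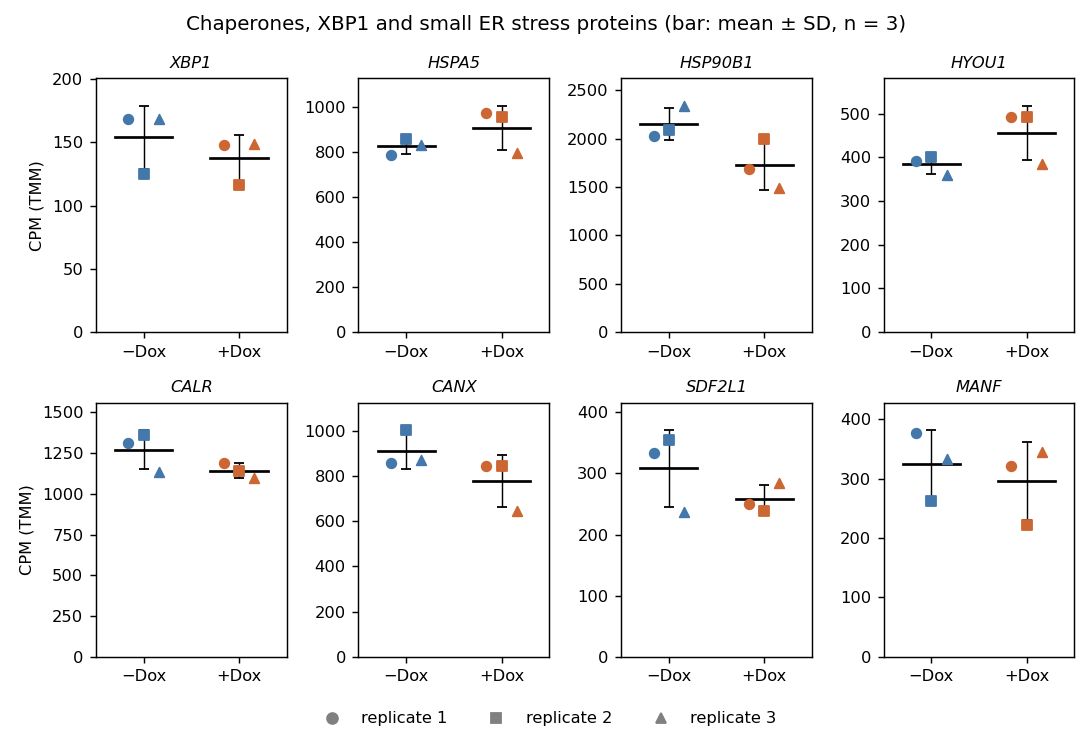
CPM after TMM normalization (vertical axis, from 0) of the 5 large chaperones, XBP1, SDF2L1 and MANF in each library, by condition; points are libraries with a shape for each replicate number, and bars give the mean ± SD of 3 libraries. None of the 8 genes passed the threshold, and the points of the 2 conditions overlap or lie close to each other, the panels of HSP90B1 and CANX having no overlap but a narrow gap.

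ERO1B, which passes electrons from reduced isomerases to oxygen, lies on chromosome 1 from 236214681 to 236282019. It was at 11.5, 10.2 and 11.2 CPM without Dox and 42.2, 52.6 and 48.7 CPM with Dox. The lowest library with Dox was above the highest without by more than the spread within either condition, and the log2 fold change was 2.12 ± 0.18 (SE, adjusted p = 1.090e-07). Its paralog ERO1A, the more widely expressed oxidase, was on a second list of ER genes and was singled out after the values of ERO1B were seen. It had 56.9 ± 4.59 CPM without Dox and 57.9 ± 3.19 CPM with Dox (SD, n = 3) and a log2 fold change of 0.03 (95% interval -0.26 to 0.31).

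All 5 disulfide isomerases had log2 fold changes under 0, and 1 of them, PDIA6, passed the threshold. PDIA6, which also binds IRE1, was at 344.3, 409.4 and 346.0 CPM without Dox and 275.7, 319.8 and 182.1 CPM with Dox. It fell by 0.50 on the log2 scale (SE 0.17, adjusted p = 0.0345), a call that was lost without replicate 1 or 2 without Dox (-0.56 and -0.42, adjusted p = 0.0621 and 0.122) and without replicate 1 or 3 with Dox (-0.55 and -0.30, adjusted p = 0.0722 and 0.123). Exons of ATP6V1C2 overlap it on the opposite strand. PDIA5, with 24.3, 24.5 and 23.9 CPM against 16.5, 15.6 and 19.8 CPM with Dox, had no overlap between conditions and a log2 fold change of -0.47 (adjusted p = 0.0673), which passed without replicate 3 with Dox (-0.59, adjusted p = 0.0414). PDIA3, the partner of the lectin chaperones, had -0.22. PDIA4 and P4HB, the latter being the classical protein disulfide isomerase, both had -0.09, and these signs turned to 0.03 and 0.04 when counts were scaled by library totals alone. That scaling moved the median of all genes from 0.016 to 0.14, so both stayed below it.

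Of the 4 co-chaperones with a J domain, which stimulate the ATPase of BiP, 3 rose. DNAJB9, an inducible co-chaperone that represses IRE1 and hands substrates to ERAD, was at 17.8, 16.1 and 25.5 CPM without Dox and 50.02, 32.8 and 55.0 CPM with Dox. Although replicate 2 with Dox was well under the other libraries with Dox, it was above all libraries without, and the log2 fold change was 1.20 ± 0.21 (SE, adjusted p = 3.887e-04). The gene lies on chromosome 7 from 108569867 to 108574850. DNAJB11, which holds unfolded proteins for BiP, went from 133.0, 106.7 and 113.6 CPM to 143.3, 150.8 and 177.5 CPM, and DNAJC3, also an inhibitor of PERK, from 143.4, 135.5 and 171.4 CPM to 192.7, 218.5 and 180.1 CPM. These rises, 0.42 and 0.39 on the log2 scale (adjusted p = 0.0277 and 0.0388), were small and depended on the libraries used. DNAJB11 lost its call without replicate 2 or 3 without Dox (0.35 and 0.39, adjusted p = 0.119 and 0.0836) and without replicate 3 with Dox (0.32, adjusted p = 0.0977), and exons of TBCCD1 overlap it on the opposite strand. DNAJC3 lost its call without replicate 1 or 2 without Dox (0.34 and 0.31, adjusted p = 0.169 and 0.167) and without replicate 1 or 2 with Dox (0.40 and 0.31, adjusted p = 0.0939 and 0.108). DNAJC10, a disulfide reductase of this family, had a log2 fold change of -0.14 and did not pass.

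The small ER stress proteins, otherwise among the transcripts that respond most to unfolded protein, did not pass the threshold. SDF2L1, a partner of DNAJB11, was at 332.5, 354.5 and 237.1 CPM without Dox and 250.5, 237.9 and 284.0 CPM with Dox. Its replicate 3 without Dox lay at the level of the libraries with Dox, and without it the log2 fold change went from -0.25 to -0.42, which passed (adjusted p = 0.0424). MANF, a protective factor held in the ER by BiP, had 376.1, 263.0 and 333.4 CPM without Dox and 321.8, 221.5 and 344.8 CPM with Dox. CRELD2, a secreted stress protein, was at 234.6, 260.5 and 247.2 CPM without Dox and 301.4, 262.7 and 285.6 CPM with Dox, higher in 3 of 3 libraries by 0.20 on the log2 scale but not past the threshold (adjusted p = 0.255).

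**Figure D4:**
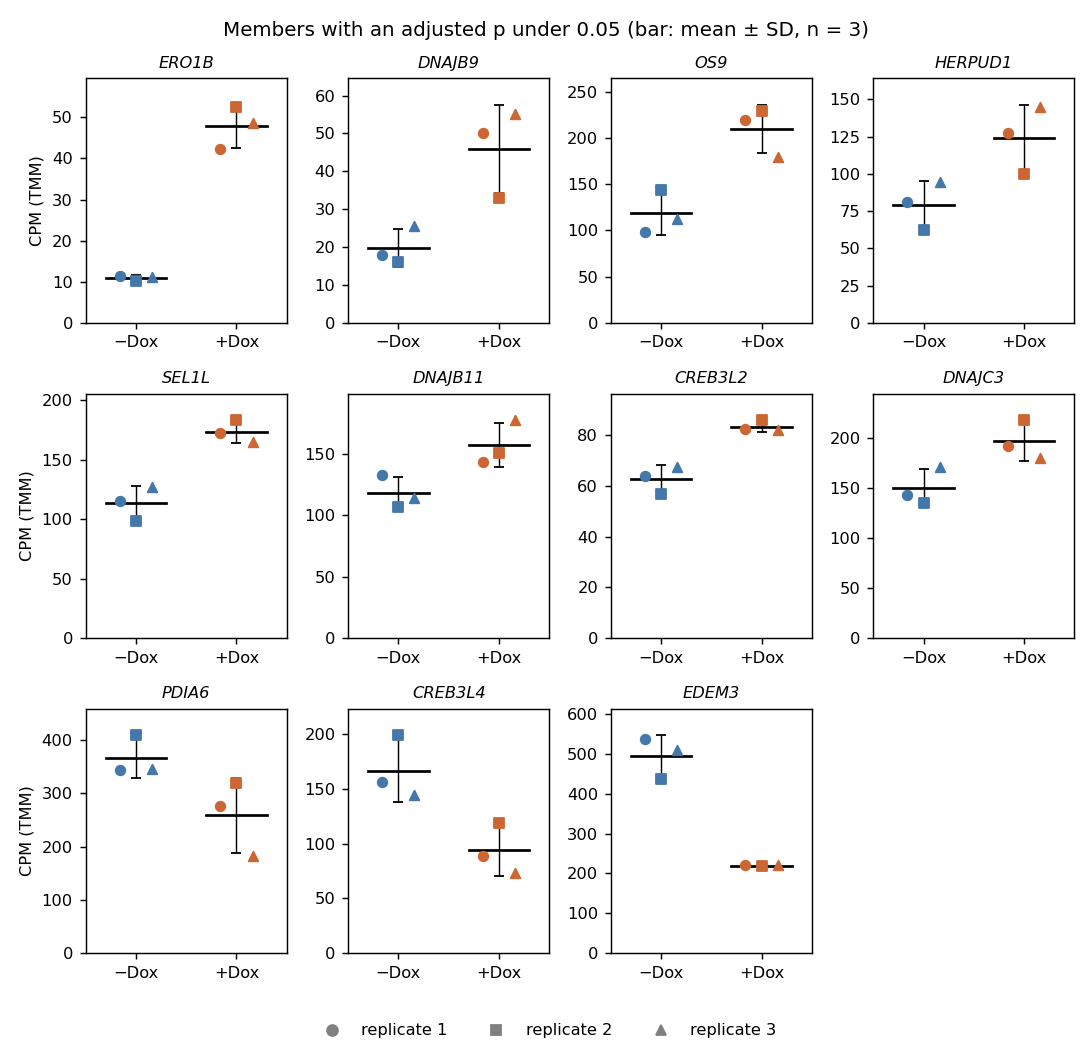
CPM after TMM normalization (vertical axes, from 0) of the 11 members with an adjusted p under 0.05, ordered from the largest rise to the largest fall; points are libraries with a shape for each replicate number, and bars give the mean ± SD of 3 libraries. In all 11 panels the 3 libraries with Dox lie on 1 side of the 3 without, with the widest gaps for ERO1B and EDEM3.

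The ERAD genes held both the largest fall and 3 of the rises. OS9 encodes the lectin that recognises trimmed glycans on misfolded glycoproteins, SEL1L the adaptor that receives them and HERPUD1 a scaffold of the same ubiquitin ligase complex. OS9 was at 98.7, 144.2 and 112.4 CPM without Dox and 219.9, 229.9 and 179.8 CPM with Dox, and SEL1L at 115.5, 98.0 and 126.6 CPM without Dox and 172.0, 183.4 and 165.1 CPM with Dox. HERPUD1, one of the most inducible UPR targets, was at 81.0, 62.3 and 94.4 CPM without Dox and 127.2, 99.9 and 144.6 CPM with Dox. All 3 had no overlap between conditions, the narrowest gap being that of HERPUD1 between replicate 3 without Dox and replicate 2 with Dox. The log2 fold changes were 0.83 for OS9 (SE 0.15, adjusted p = 5.252e-04), 0.61 for SEL1L (SE 0.13, adjusted p = 0.00203) and 0.64 for HERPUD1 (SE 0.16, adjusted p = 0.00746). Exons of AGAP2 overlap OS9 on the opposite strand and exons of AGAP2-AS1 on the same strand.

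EDEM3, which encodes a mannosidase that trims glycans and so marks glycoproteins for degradation, lies on chromosome 1 from 184690237 to 184754907. It was at 537.8, 437.3 and 509.5 CPM without Dox and 221.2, 217.6 and 220.9 CPM with Dox. The libraries with Dox were nearly equal and all far below those without, and the log2 fold change was -1.17 ± 0.13 (SE, adjusted p = 2.426e-06). Its relatives did not share the fall, since EDEM1 had a log2 fold change of 0.39 (95% interval -0.16 to 0.94) and EDEM2 one of 0.17 (-0.33 to 0.66), and neither interval reaches that of EDEM3, which runs from -1.43 to -0.91. SYVN1, the ubiquitin ligase HRD1 to which SEL1L binds, was at 23.5, 11.2 and 30.9 CPM without Dox and 33.1, 13.4 and 33.4 CPM with Dox, with a log2 fold change of 0.27 that had the widest interval of the group (-0.37 to 0.92). Exons of FAU and MIR6751 overlap it on the same strand and exons of MRPL49 on the opposite strand. The derlins, which help move substrates back across the membrane, gave -0.08 for DERL1, 0.21 for DERL2 and -0.31 for DERL3, and VIMP, which recruits the segregase VCP to them, gave -0.12. None of these passed.

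None of the 4 translocon genes passed the threshold. SEC61A1 and SEC61B, subunits of the channel, had log2 fold changes of -0.02 and 0.03 and SSR1 and SSR3, subunits of the associated TRAP complex, -0.15 and -0.16. Their summed level was 944.5, 910.8 and 1016 CPM without Dox and 908.5, 858.5 and 914.9 CPM with Dox. Over the group as a whole, the 95% intervals of 27 of the 28 members that were tested and did not pass stayed within a 2-fold change either way, and 21 stayed within 1.5-fold. Only that of ATF6B went past 2-fold, towards a rise. The summed level of all 40 members was 11477, 11490 and 11471 CPM without Dox and 10878, 10840 and 9995 CPM with Dox. Abundant members weigh most in this sum. HSP90B1 alone had means of 2153 CPM without Dox and 1725 CPM with Dox, while HSPA5 went from 825 to 907 CPM. The sum therefore does not give the direction of most members, of which 8 rose and 3 fell past the threshold.

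Replicates of 1 condition differed in a way that several members shared. In 14 of the 39 tested members replicate 2 was the lowest library both without and with Dox, which was so for 17.7% of all genes tested (35.9% of the members), while replicate 1 was lowest in both for 0 members and 7.79% of all genes. SYVN1, whose exons overlap those of FAU, was in replicate 2 at 0.511 of the mean of its condition without Dox and 0.502 with Dox, and EDEM1 at 0.653 and 0.607. SEC61B, DERL1, MANF and DNAJB9 were at 0.714 to 0.815 in both. Replicate 2 was the smallest library of either condition, with 3394672 and 3460471 counts, and the part of depth in this pattern was not tested. The fit with the replicate number as a block gave the same 11 calls.

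**Figure D5:**
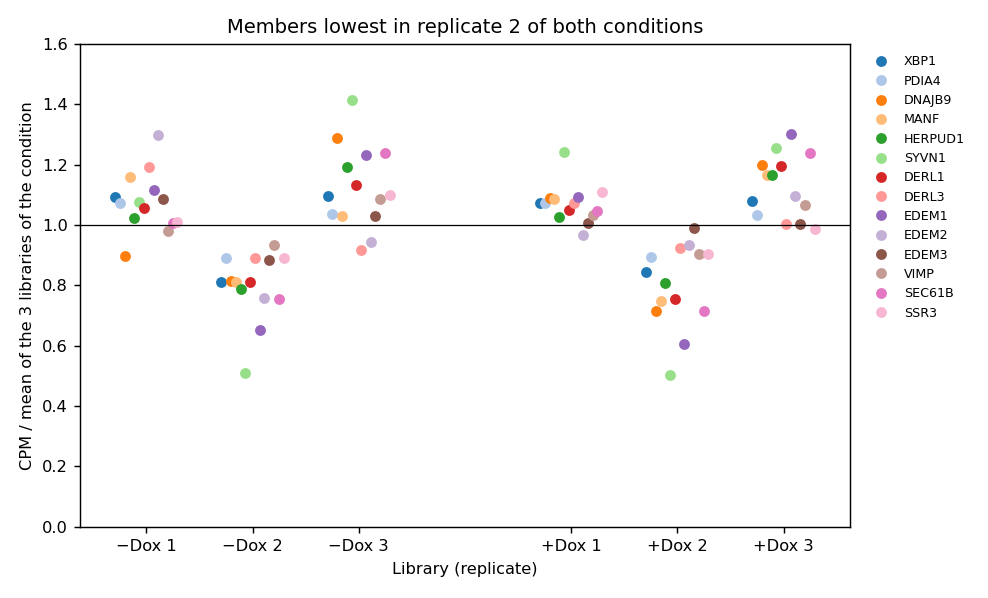
Level of the 14 members that were lowest in replicate 2 of both conditions, as CPM divided by the mean of the 3 libraries of the condition (vertical axis, from 0), in each of the 6 libraries; every point is 1 gene in 1 library. The members were chosen for being lowest in replicate 2, so their points in its 2 columns lie under 1 by that choice. SYVN1 is the lowest of them, at 0.511 and 0.502.

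The PERK arm, read through 8 genes outside the members, was also mixed, and it shares ATF4 with the amino acid stress response. EIF2AK3, which encodes PERK, rose from 49.9, 38.5 and 40.8 CPM to 55.0, 60.1 and 75.0 CPM (log2 fold change 0.56, adjusted p = 0.0140), a call lost without replicate 2 or 3 without Dox or replicate 3 with Dox. CHAC1, a glutathione-degrading target of ATF4, rose from 2.63 ± 0.68 to 6.30 ± 1.25 CPM (SD, n = 3; log2 fold change 1.23, adjusted p = 0.0139) and lost its call without replicate 2 without Dox or replicate 3 with Dox. TRIB3, another target of ATF4, fell from 140.1 ± 6.56 to 104.9 ± 9.65 CPM (log2 fold change -0.41, adjusted p = 0.0208), a call lost without replicate 2 or 3 without Dox or replicate 2 with Dox. ATF4 had a log2 fold change of -0.29, with all libraries with Dox below those without, and DDIT3, which encodes the proapoptotic factor CHOP, had 0.16. The phosphatase subunits PPP1R15A and PPP1R15B, which reverse the action of PERK, had 0.32 and -0.15 and its substrate EIF2S1 had -0.08, and these 5 genes did not pass.

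Across 5 further lists of ER genes, the PERK arm included, 123 of 127 genes were tested, and 18 rose and 18 fell, 14.6% in either direction beside 11.9% and 13.7% of all genes tested, with a median log2 fold change of 0.03. The genes named below had the lowest adjusted p of their list in each direction. Of the 29 further ERAD genes 7 rose and 3 fell. MAN1B1, a mannosidase that starts the trimming read by OS9, had 0.80 and UBXN4, an adaptor of VCP, 0.61, while SVIP, an inhibitor of ERAD that binds VCP, fell from 1457 ± 26.1 to 644.7 ± 25.8 CPM (SD, n = 3; log2 fold change -1.18, adjusted p = 1.666e-06) and UFD1, another cofactor of VCP, had -0.55. Of 44 further folding genes tested 4 rose and 5 fell, CNPY4 (0.92) and CRELD1 (0.76) being among the rises and the thioredoxin-like TXNDC12 (-0.56) and TMX2 (-0.49) among the falls. Of these TMX2 lost its call without replicate 1 without Dox. Of 33 further genes of translocation, signal peptide cleavage and N-glycosylation 5 rose and 6 fell. RPN2 (0.63) and DAD1 (0.68), subunits of the oligosaccharyltransferase, rose. Other subunits of that complex, named outside the rule, were called in both directions. OST4 (0.84, with overlap between the groups) and TUSC3 (0.37) rose, while RPN1 (-0.48) and STT3A (-0.39) fell. SEC11A (-1.08), a catalytic subunit of the signal peptidase, and SRPRB (-0.58), a subunit of the receptor for the signal recognition particle, fell. SEC11C, the paralog of SEC11A, had -0.14 and did not pass (adjusted p = 0.478). The last list held further sensors, membrane-bound factors, regulators of the ATF6 and IRE1 arms and related ER genes. Among its 9 tested genes 0 rose and 3 fell, CREB3L1 and TRAF2 (-0.96), an adaptor that IRE1 recruits, among them.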

How the data were processed

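RNA of 22Rv1-ABHD5 cells was profiled by 3ʹ mRNA sequencing, so reads come from transcript ends and counts were not divided by length. Single-end reads of 100 bp were aligned by the authors with STAR against hg38; HTSeq is listed in the submitters' processing notes, and the annotation is not given in the sources used here. Labels and methods name different kits (FWD and REV) and no strand setting, so overlapping genes, 17 of the 40 members by GENCODE 44, are uncertain. The authors deposited raw counts per gene symbol and, per library, a normalized signal whose method is not stated. Rows that name no gene were left out.

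Counts of all genes were fitted with edgeR 4.0.16 in R 4.3.3 (filterByExpr, TMM, quasi-likelihood test, Benjamini-Hochberg adjusted p over all genes, threshold 0.05). Standard errors are the log2 fold change over the root of F, and 95% intervals use its t quantile. Counts of 12233 genes were simulated with 200 of them changed. The test recovered 29.9% of genes changed 1.5-fold, 76.1% of those changed 2-fold and 98.5% of those changed 4-fold. The false share among its calls was 8.72%. In the data 3125 genes were called, far more than were changed in the simulation, so these rates need not hold for the data. Alternatives were other normalizations and filters, DESeq2 1.42.0, a replicate block, each library left out, and limma 3.58.1 on log2 of the deposited signal plus 1. Members and lists were chosen with earlier results of these data known, so no list was tested as a set. Every member was to be accounted for, and of each further ER list the 2 genes of lowest adjusted p among those called, in each direction, were named, with the whole PERK list and ABHD5. ERO1A, SEC11C and further oligosaccharyltransferase subunits were named outside this rule, for comparison. Reads carry no molecular identifiers, and 3 counts, the limit of detection, are 0.413 to 0.884 CPM before TMM.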

Additional observations from a re-analysis of the deposited data

How the results depend on the processing

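Of the 11 members called, 7 (ERO1B, DNAJB9, OS9, HERPUD1, SEL1L, CREB3L4 and EDEM3) kept direction and call in each of 14 alternatives; the other 4 lost calls as given above, CREB3L2 also without a filter (0.39, adjusted p = 0.0540) and PDIA6 with upper-quartile normalization (-0.45, adjusted p = 0.0581) and library totals alone (-0.38, adjusted p = 0.0944). DESeq2, its size factors, the deposited values, a minimum of 10 counts in every library and the replicate block gave the same 11 members. Deviations of same-numbered libraries had r of -0.01, 0.23 and 0.09 for replicates 1, 2 and 3, and differently numbered ones -0.17 to 0.10. Only replicate 2 was thus above every r between different numbers, and what its libraries share was not tested. The block gave 8 members higher and 3 lower, and a median of -0.085. It also gave 20 and 18 genes of the other ER lists, and 0.89 for ABHD5. Leaving out each library in turn gave 5 to 8 members higher (5 without replicate 2 without Dox) and 2 to 4 lower, a members' median of -0.107 to 0.038 (over 0 without replicate 2 with Dox), 9 to 22 genes of the other lists higher (9 and 11 without replicates 2 and 1 without Dox) and 10 to 17 lower (10 without replicate 3 without Dox). Library totals alone raised the members' median to 0.041 and all genes to 0.138, made ATF6, ATF6B and HYOU1 pass, gave 33 genes of the other lists higher and 10 lower, and moved the share of all calls that were higher from 46.4% to 65.7%; upper-quartile normalization gave a median of -0.025. Signs near 0 turned under library totals for CREB3 (0.021), PDIA4 (0.034), P4HB (0.035), DERL1 (0.041), VIMP (0.0019), SEC61A1 (0.101) and EIF2S1 (0.046), and for SEC61A1 also with upper-quartile normalization (0.034) and at least 10 counts (0.0031). With 1 library left out they turned for SYVN1 (-0.021 to 0.63), SEC61A1 (-0.12 to 0.080), SEC61B (-0.16 to 0.21), DERL1 (-0.24 to 0.073), MANF (-0.26 to 0.038), EIF2S1 (-0.17 to 0.041), DDIT3 (-0.058 to 0.31) and ERO1A (-0.051 to 0.066). The cause was not tested. TRIB3 and TMX2 lost their calls under library totals, and PPP1R15A passed under it and upper-quartile normalization. On simulated counts with 200 genes changed, 76.1% of 2-fold changes were called. Changes of this size or smaller can therefore be missed, but with 3125 genes called in the data the share missed may differ.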
